A study of Mus musculus with 6 samples.

Results

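The genes described here build and anchor the contractile actin cytoskeleton: actins, nonmuscle myosin II and its light chains, tropomyosins, actin crosslinkers, focal adhesion proteins, calponins and transgelins, the linkers that tie actin to the plasma membrane, and a few regulators and scaffolds. They were chosen by name, as 34 mouse gene symbols. The symbols matched 35 of the 31227 rows of the gene table, because Myl12b is the symbol of 2 rows, the gene itself and a row for a readthrough transcript that joins Myl12a and Myl12b. All 35 rows passed the filter on low counts, which left 15503 genes to test, so no member was lost to it. Bulk RNA-seq was done on mouse intestinal organoids, 3-dimensional cultures of gut epithelium, in 3 groups of 2 libraries. The WT group had intact Smad4, the Smad4 KO group was Smad4-deficient by label, and the Smad4 KO+TGFb group was Smad4 KO exposed to 0.5 nM TGFb, a cytokine whose canonical signal runs through SMAD proteins. Every group grew in a medium with 50 ng/ml EGF, 100 ng/ml Noggin, a BMP antagonist, and 500 ng/ml R-spondin1, a Wnt amplifier, and every label carries a time of 48 h. No WT group with TGFb was analysed here, and neither the way Smad4 was inactivated, nor the number of organoid lines, nor the origin of the replicates is given in the sources used here, so p-values measure only how far these libraries spread, and that spread may be technical. A difference between organoid lines cannot be told apart from the genotype.

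In epithelium, nonmuscle myosin II pulls on filaments of beta- and gamma-actin in the cell cortex and in the belt beside the apical junctions, while focal adhesions couple the same filaments to the matrix through integrins. Phosphorylation of the regulatory light chain of myosin switches contraction on, and tropomyosins decide which myosins and cofilins reach a filament. Many genes of this system are textbook targets of serum response factor (SRF), which binds a short DNA element called the CArG box and is driven by MRTF coactivators released when actin monomers are used up.

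The CArG box can be read directly in the promoters of several of these genes, and the sequences are shown because the genes that carry it moved in opposite directions in the organoids. RefSeq promoters (GRCm38.p6) were found for 31 of the 34 symbols, as 34 promoters, and not for Actb, Pxn and Tagln. The 250 bases before each start were searched on both strands for the CArG box. The box is CC, then 6 bases that are each A or T, then GG. It was present in 8 of the 34 promoters (23.5%), those of Acta1, Actg1, Cnn2, Lima1, Myl6, Myl9, Srf and Vcl, against 482 of all 32851 promoters (1.47%). Another promoter of Myl6 had no box, and the Myl6 window with the box overlaps an annotated exon and is not printed. Capitals mark the box in the following windows, each written 5′ to 3′ on the strand of its gene.
Acta1, chr8:123894814-123894873, minus strand: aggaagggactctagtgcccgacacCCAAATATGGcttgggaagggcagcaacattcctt
Actg1, chr11:120348551-120348610, minus strand: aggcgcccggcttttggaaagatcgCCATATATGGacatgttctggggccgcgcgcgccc
Myl9, chr2:156775278-156775337, plus strand: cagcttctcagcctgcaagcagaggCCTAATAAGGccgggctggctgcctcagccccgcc
Cnn2, chr10:79988519-79988578, plus strand: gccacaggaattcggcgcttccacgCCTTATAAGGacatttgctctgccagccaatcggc
Lima1, chr15:99820162-99820221, minus strand: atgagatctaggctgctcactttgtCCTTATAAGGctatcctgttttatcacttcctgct
Vcl, chr14:20929148-20929205, plus strand: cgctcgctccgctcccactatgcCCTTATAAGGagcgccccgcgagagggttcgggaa
Srf, chr17:46556210-46556269, minus strand: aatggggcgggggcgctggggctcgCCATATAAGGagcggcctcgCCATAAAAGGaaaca
The boxes began 73 bases before the gene start in Acta1, 90 in Actg1, 161 in Myl9, 56 in Cnn2, 47 in Lima1 and 227 in Vcl, and Srf carried 2, at 82 and 62 bases. Cnn2, Lima1 and Vcl share the same 10 letters, CCTTATAAGG. GGAATG, a core bound by TEAD factors and searched on both strands, stood in 26.5% of the members' promoters and 12.6% of all promoters. TATAAA, searched only on the strand of the gene, stood in 2.94% and 7.59%. A match of letters is a description of the window and does not show that a factor binds there.

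Libraries held 40.55 to 50.7 M deposited units (M, 1e6), and replicates correlated across genes at 0.9921 to 0.993 (log2 CPM). Low values clustered at multiples of 4, from which about 4 units per sequenced fragment were inferred, or 10.1 to 12.7 M fragments per library. Levels are given as CPM, deposited units per 1e6 units of the library after TMM scaling. Smad4 itself measured 99.4 and 109 CPM in WT libraries, 21.7 and 23.1 CPM in Smad4 KO libraries and 25.2 and 29.5 CPM in Smad4 KO+TGFb libraries, so its level followed the labels. Of all genes tested, 30.3% passed in Smad4 KO against WT (16.9% higher and 13.4% lower), 16.3% in Smad4 KO+TGFb against Smad4 KO (7.78% and 8.48%) and 39.7% in Smad4 KO+TGFb against WT (20.7% and 19.0%).

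As a group, the cytoskeletal genes had a higher summed level in each step from WT to Smad4 KO to Smad4 KO+TGFb. Their summed level was 10575 and 10551 CPM in WT, 11923 and 11890 in Smad4 KO, and 14006 and 13766 in Smad4 KO+TGFb. The libraries of the 3 groups did not overlap in this sum. It is a TMM-scaled level and not a share of all units in a library. The scaling factors were 1.033 and 1.032 in WT, 0.9692 and 0.9667 in Smad4 KO, and 0.9982 and 1.003 in Smad4 KO+TGFb. Without them the rise from WT to Smad4 KO would be smaller. In bulk RNA, a different mix of cells and a different amount of a transcript per cell cannot be told apart, here or in any value that follows.

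A gene passed when its Benjamini-Hochberg adjusted p in edgeR's quasi-likelihood test, fitted to all tested genes and all 6 libraries, was under 0.05. In Smad4 KO against WT, 14 members rose (background 16.9%) and 4 fell (background 13.4%), and the median log2 fold change over the 34 genes was 0.18, against -0.02 over all genes tested. Adding TGFb to Smad4 KO organoids went with 15 higher (background 7.78%) and 3 lower (background 8.48%), and a median of 0.24 against -0.01. In Smad4 KO+TGFb against WT, 23 were higher (background 20.7%) and 3 lower (background 19.0%), with a median of 0.46 against -0.02. In Smad4 KO against WT, 2 members passed and rose by more than 1.5-fold, Myh14 and Ahnak (background 9.05%), and 2 fell by as much, Acta1 and Myl9 (background 6.42%). With TGFb against Smad4 KO, the members past 1.5-fold were Ahnak, Cnn2, Flna and Tpm2 upward, 4 in all (background 4.28%), and Acta1 and Myl9 downward (background 3.77%). In Smad4 KO+TGFb against WT, 13 rose (background 12.1%) and 2 fell (background 10.5%) by more than 1.5-fold. The 2 steps share the Smad4 KO libraries, and the last comparison shares libraries with both, so a high or low Smad4 KO value would move them together.

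**Figure D1:**
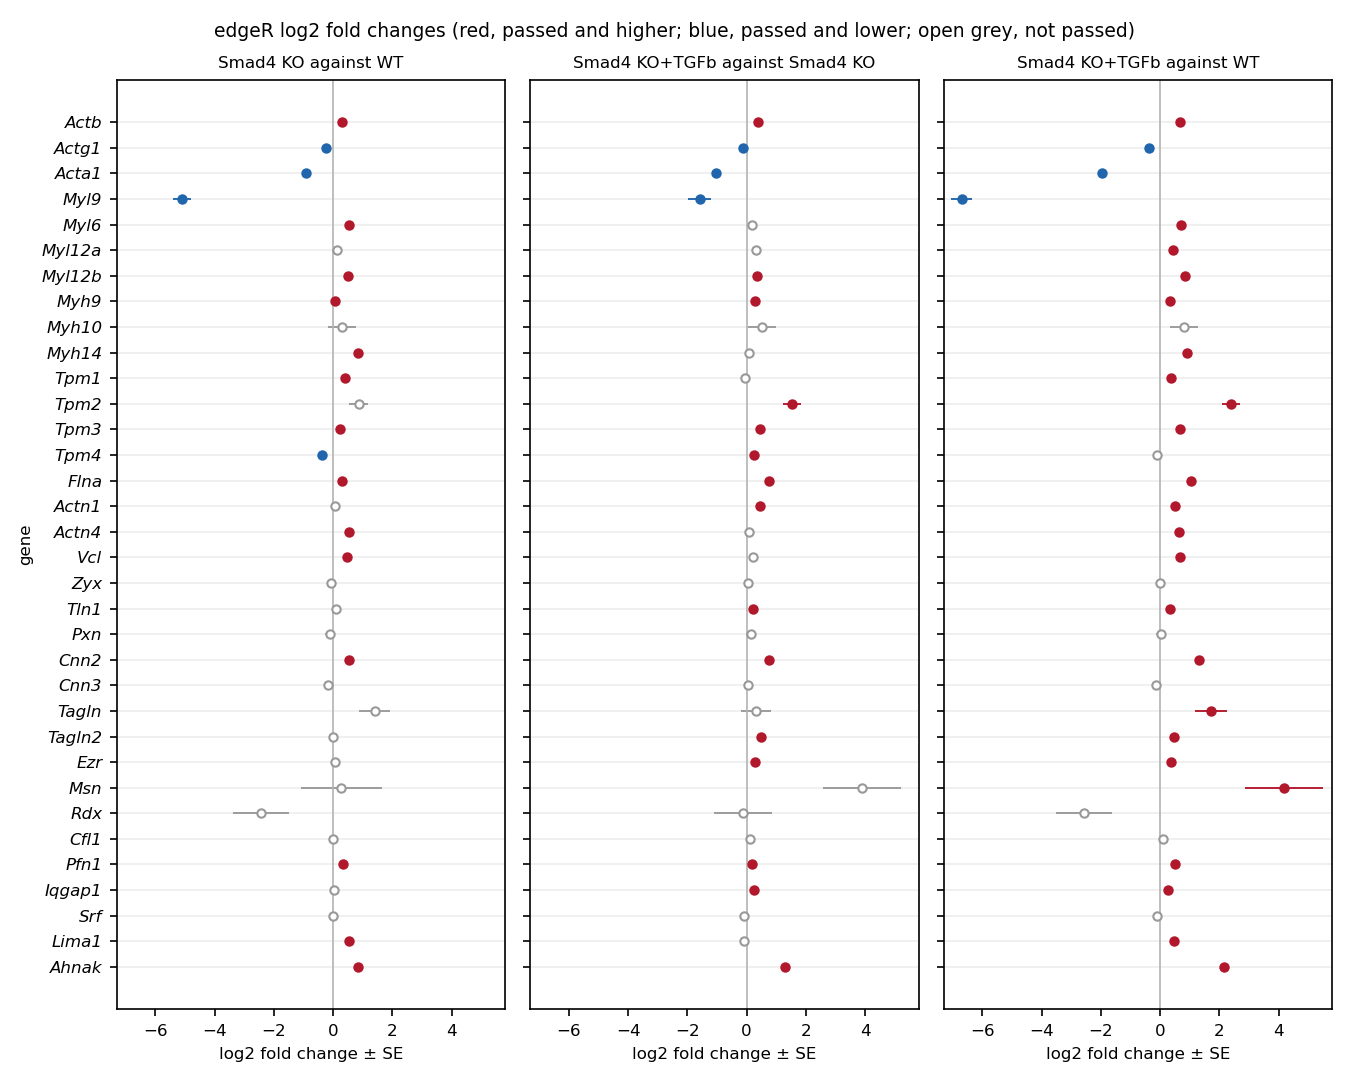
log2 fold change ± SE from edgeR for each of the 34 genes in the 3 comparisons, with passed and higher genes in red, passed and lower genes in blue and genes that did not pass as open grey circles (n = 2 libraries per group). Of the genes shown, 14, 15 and 23 are red and 4, 3 and 3 are blue from left to right, and Myl9 lies far to the left in the first and last panel.

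The actins moved apart. Actb, the beta-actin of the cell cortex and of moving edges, stood at 1177 and 1138 CPM in WT, 1414 and 1426 in Smad4 KO, and 1877 and 1801 in Smad4 KO+TGFb. It rose in each step without overlap between groups, by a log2 fold change of 0.29 ± 0.0274 SE in Smad4 KO against WT (edgeR adjusted p = 0.000506) and by 0.37 ± 0.0274 with TGFb (edgeR adjusted p = 0.000366), and was 1.59-fold higher in Smad4 KO+TGFb than in WT. Actg1, the gamma-actin that is enriched in epithelial cortex and microvilli, ran the other way, from 1833 and 1854 CPM in WT to 1567 and 1532 in Smad4 KO and 1418 and 1457 CPM in Smad4 KO+TGFb. Its fall was 0.25 on the log2 scale in Smad4 KO against WT (log2 fold change -0.25 ± 0.0217 SE, edgeR adjusted p = 0.000379). The further fall with TGFb was slight (-0.11 ± 0.0217 SE, edgeR adjusted p = 0.019) and did not pass without Smad4 KO replicate 1 (edgeR adjusted p = 0.104) or without Smad4 KO+TGFb replicate 1 (edgeR adjusted p = 0.0874).

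Because these changes ran in opposite directions, the sum of Actb and Actg1 moved little between WT (3010 and 2992 CPM) and Smad4 KO (2981 and 2958 CPM), and reached 3296 and 3257 CPM in Smad4 KO+TGFb. The ratio of Actb to Actg1 within each library, per kb of exon, was 0.637 and 0.609 in WT, 0.895 and 0.924 in Smad4 KO, and 1.31 and 1.23 in Smad4 KO+TGFb. Gamma-actin was thus the more abundant transcript in every WT and Smad4 KO library and beta-actin in both treated ones. With 2 libraries against 2, an exact permutation test of such a ratio cannot go below p = 0.333, so ratios are given as values without a test.

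Acta1, the actin of skeletal muscle thin filaments, made up about 2% of the actin transcripts in WT per kb (2.16% and 1.99%) and dropped in each step. It stood at 38.3 and 35.0 CPM in WT, 19.4 and 19.1 in Smad4 KO, and 10.5 and 8.39 in Smad4 KO+TGFb, with no overlap between groups. It fell by 0.93 on the log2 scale in Smad4 KO against WT (± 0.129 SE, edgeR adjusted p = 0.00271) and by a further 1.03 with TGFb (± 0.132 SE, edgeR adjusted p = 0.00342), and was 3.89-fold lower in Smad4 KO+TGFb than in WT.

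**Figure D2:**
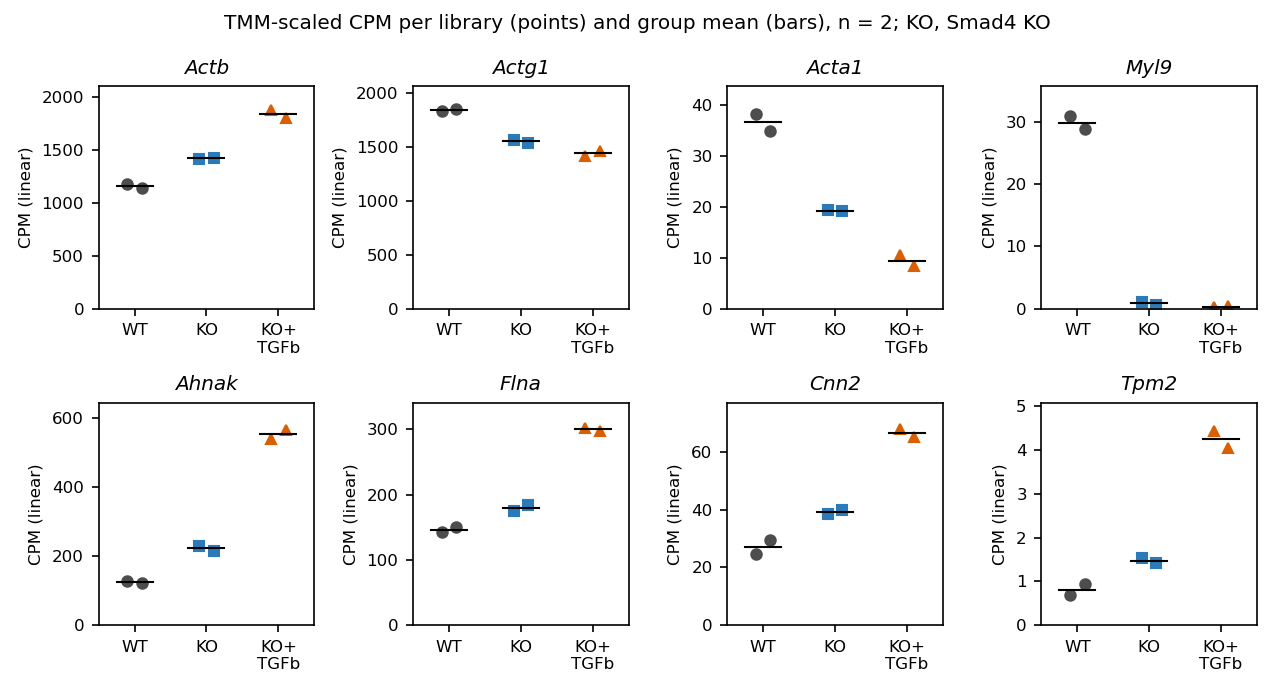
TMM-scaled CPM on linear axes that start at 0, with 1 point per library, black bars at the group means and n = 2 per group, for 8 members with clear steps between groups. Actb, Ahnak, Flna, Cnn2 and Tpm2 climb from left to right, Actg1 and Acta1 descend, and Myl9 drops from 31.0 and 28.8 CPM in WT to under 1.2 CPM in the other 4 libraries.

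The regulatory light chain Myl9 showed the largest change of the members that passed. Myl9 (chromosome 2, 156775420 to 156781658, plus strand, GRCm38) encodes the light chain typical of smooth muscle and many nonmuscle cells, the subunit whose phosphorylation turns myosin II on. Its level was 31.0 and 28.8 CPM in WT, 1.12 and 0.619 in Smad4 KO, and 0.208 and 0.365 in Smad4 KO+TGFb. Both WT libraries lay far above the other 4. The log2 fold change in Smad4 KO against WT was -5.10 ± 0.313 SE (34.4-fold lower, edgeR adjusted p = 9.01e-05), and in Smad4 KO+TGFb against WT it was -6.69 ± 0.352 SE (103-fold lower, edgeR adjusted p = 2.97e-05). Low counts limit these folds: the Smad4 KO libraries together held about 17 Myl9 fragments and the treated ones about 6, against 722 in WT, which gave ratios to WT of 0.0284 (95% counting interval 0.0165 to 0.0459) and 0.00918 (0.00336 to 0.0201). Between Smad4 KO and Smad4 KO+TGFb the log2 fold change of -1.59 passed (edgeR adjusted p = 0.0365) on 17 against 6 fragments. It no longer passed when either Smad4 KO replicate 1 (edgeR adjusted p = 0.131), Smad4 KO+TGFb replicate 1 or 2 (edgeR adjusted p = 0.164 and 0.0617), or WT replicate 1 or 2 (edgeR adjusted p = 0.0729 and 0.0685) was left out, with values divided by 4 (edgeR adjusted p = 0.0724), or with only the 4 libraries compared (edgeR adjusted p = 0.214).

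The fall of Myl9 was set beside markers of cells that express it strongly. Of 10 smooth muscle and myofibroblast markers, Actg2, Des, Lmod1 and Myocd were at 0 in all 6 libraries, Acta2 stood at 0 to 1.22 CPM, Myh11 at 0 to 0.365 CPM and Cnn1 at 0 to 0.255 CPM. Their summed level was 24.1 and 32.3 CPM in WT, 24.7 and 21.7 in Smad4 KO, and 24.9 and 29.2 in Smad4 KO+TGFb, most of it from Smtn, and none of the 3 that could be tested passed in any comparison. Of 8 fibroblast markers, Col1a2, Col3a1, Dcn and Lum were at 0 in every library, while the summed level fell from 18.0 and 18.3 CPM in WT to 6.31 and 7.41 in Smad4 KO and 3.54 and 6.18 CPM in Smad4 KO+TGFb. That sum was mostly Vim, an intermediate filament gene that fell in Smad4 KO organoids (log2 fold change -1.42 against WT, edgeR adjusted p = 0.00891). Pdgfrb passed too, as lower in Smad4 KO+TGFb than in WT (edgeR adjusted p = 0.00632). The part of these cells in the Myl9 and Acta1 values was not tested.

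The other light chains did not follow Myl9. Myl12b, a nonmuscle regulatory light chain close in sequence to Myl9, stood at 187 and 191 CPM in WT, 264 and 268 in Smad4 KO, and 340 and 339 in Smad4 KO+TGFb. It rose in both steps, by 0.50 ± 0.0365 SE (edgeR adjusted p = 0.000196) and by 0.35 ± 0.0364 SE on the log2 scale (edgeR adjusted p = 0.00151). Myl6, the essential light chain that stiffens the myosin lever arm, was at 238 and 231 CPM in WT, 327 and 352 in Smad4 KO and 408 and 367 in Smad4 KO+TGFb. Its rise passed in Smad4 KO against WT (log2 fold change 0.53 ± 0.0628 SE, edgeR adjusted p = 0.00134) and not with TGFb against Smad4 KO (0.19, edgeR adjusted p = 0.0948). Myl12a ranged from 107 to 159 CPM and passed only in Smad4 KO+TGFb against WT (log2 fold change 0.43, edgeR adjusted p = 0.0109, and 0.0553 without WT replicate 1). With TGFb against Smad4 KO it passed only once Smad4 KO+TGFb replicate 2 was left out (edgeR adjusted p = 0.0676 with all libraries and 0.0203 without it), without the low-count filter or in DESeq2.

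Myl12a and Myl12b share stretches of at least 200 bases at 95% identity or more, and the readthrough row overlaps both, so their split is uncertain. The readthrough row was above 0 in only 2 libraries, WT replicate 2 at 1.92 CPM and Smad4 KO+TGFb replicate 2 at 17.3 CPM. The sum of the 3 rows does not depend on the split and was 294 and 301 CPM in WT, 384 and 382 in Smad4 KO, and 498 and 487 in Smad4 KO+TGFb. Of the regulatory light chain transcripts of Myl9, Myl12a and Myl12b, per kb, Myl9 made up 21.2% and 19.7% in WT, 0.73% and 0.406% in Smad4 KO and 0.105% and 0.194% in Smad4 KO+TGFb.

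Among the heavy chains, Myh14 (nonmuscle myosin IIC, prominent at the apical junctions of gut epithelium) passed as higher in Smad4 KO than in WT, and did not pass with TGFb against Smad4 KO. It stood at 446 and 429 CPM in WT, 773 and 798 in Smad4 KO, and 837 and 820 in Smad4 KO+TGFb. The log2 fold change was 0.84 ± 0.0323 SE in Smad4 KO against WT (1.79-fold, edgeR adjusted p = 1.18e-05), and 0.08 with TGFb against Smad4 KO, with a 95% interval of -0.03 to 0.18 (edgeR adjusted p = 0.177). Myh9, the widely expressed myosin IIA heavy chain, ranged from 986 to 1048 CPM in WT and Smad4 KO and stood at 1250 and 1248 CPM in Smad4 KO+TGFb. Its rise with TGFb passed (log2 fold change 0.27 ± 0.0204 SE, edgeR adjusted p = 0.000432). In Smad4 KO against WT its log2 fold change of 0.07 lay just inside the threshold (edgeR adjusted p = 0.0408) and missed it when any 1 of the 6 libraries was left out (edgeR adjusted p = 0.0523 to 0.176). Myh10, myosin IIB, was scarce at 1.14 to 3.78 CPM and passed in no comparison, except against WT in Smad4 KO+TGFb once WT replicate 1 was left out (edgeR adjusted p = 0.0266).

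The ratio of Myh14 to Myh9 per kb of exon rose from 0.805 and 0.769 in WT to 1.31 and 1.38 in Smad4 KO, and was 1.19 and 1.17 in Smad4 KO+TGFb, so the groups did not overlap. Which of the 2 transcripts was the more abundant in the KO groups depends on the length used: per kb of the longest CCDS transcript, a length added after seeing the data, the ratio stayed under 1 in all libraries (0.498 to 0.892). The direction of the differences between groups does not depend on it.

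Tropomyosins, the coiled coils that lie along actin filaments, did not move as a family. Tpm3 was at 231 and 238 CPM in WT, 262 and 291 in Smad4 KO, and 380 and 372 in Smad4 KO+TGFb, and its rise with TGFb passed (log2 fold change 0.44 ± 0.0553 SE, edgeR adjusted p = 0.00312). The smaller rise in Smad4 KO against WT (0.24, edgeR adjusted p = 0.0202) did not pass without WT replicate 1, WT replicate 2 or Smad4 KO replicate 2 (edgeR adjusted p = 0.0923, 0.0626 and 0.0648). Tpm3 shares sequence with the copy Tpm3-rs7, whose units equalled 64.8% of those of Tpm3, and the sum of both was 386 and 391 CPM in WT, 441 and 468 in Smad4 KO and 621 and 617 in Smad4 KO+TGFb. Tpm4 dipped and came back: 272 and 274 CPM in WT, 212 in each Smad4 KO library, and 257 and 252 CPM in Smad4 KO+TGFb. It fell in Smad4 KO against WT (log2 fold change -0.37 ± 0.0371 SE, edgeR adjusted p = 0.000717) and rose with TGFb (0.26 ± 0.0371 SE, edgeR adjusted p = 0.00496), and it is the only member that passed in opposite directions in these 2 comparisons, which share the Smad4 KO libraries.

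Tpm1 ranged from 267 to 280 CPM in WT, 362 to 366 CPM in Smad4 KO and 325 to 385 CPM in Smad4 KO+TGFb. It passed as higher than WT in both KO groups (edgeR adjusted p = 0.00882 and 0.00961), in neither case without WT replicate 1 (edgeR adjusted p = 0.0516 and 0.0546). Tpm2, the tropomyosin of slow and smooth muscle, was rare throughout, at 0.688 and 0.935 CPM in WT, 1.53 and 1.41 in Smad4 KO, and 4.44 and 4.06 in Smad4 KO+TGFb. The treated libraries were the highest, and Tpm2 was 5.24-fold higher in them than in WT (log2 fold change 2.39, edgeR adjusted p = 0.0015), from about 92 against 19 fragments (ratio 5.35, 95% counting interval 3.24 to 9.29). Against Smad4 KO the log2 fold change of 1.53 ± 0.305 SE passed (edgeR adjusted p = 0.0186) and was lost without any 1 of the 4 libraries compared (edgeR adjusted p = 0.0706 to 0.0999).

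Crosslinkers rose, at different steps. Flna (filamin A, which joins crossing filaments into a network and binds integrins) stood at 142 and 150 CPM in WT, 174 and 184 in Smad4 KO, and 302 and 298 in Smad4 KO+TGFb. Its rise was 0.29 ± 0.0505 SE on the log2 scale in Smad4 KO against WT (edgeR adjusted p = 0.00667) and 0.75 ± 0.0506 SE with TGFb (edgeR adjusted p = 0.000257). Actn4, the alpha-actinin of junctions and the cortex, was at 627 and 496 CPM in WT, 893 and 753 in Smad4 KO, and 880 and 848 in Smad4 KO+TGFb. It rose in Smad4 KO against WT (log2 fold change 0.55 ± 0.12 SE, edgeR adjusted p = 0.0158), not without Smad4 KO replicate 1 (edgeR adjusted p = 0.075), and did not pass with TGFb against Smad4 KO (0.07, 95% interval -0.31 to 0.45). Actn1, the alpha-actinin of stress fibres and focal adhesions, was the reverse. It ranged from 267 to 288 CPM in WT and Smad4 KO, where it did not pass (0.05, 95% interval -0.11 to 0.20), and stood at 379 and 400 CPM in Smad4 KO+TGFb, higher than in Smad4 KO (log2 fold change 0.45 ± 0.0488 SE, edgeR adjusted p = 0.00179).

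Of the 4 focal adhesion proteins, 1 rose in each step. Vcl, vinculin, which reinforces adhesions and junctions under load, was at 107 and 106 CPM in WT, 151 and 144 in Smad4 KO, and 163 and 176 in Smad4 KO+TGFb. It rose in Smad4 KO against WT (log2 fold change 0.47 ± 0.0579 SE, edgeR adjusted p = 0.00157) and did not pass with TGFb (0.20, 95% interval 0.01 to 0.38, edgeR adjusted p = 0.0685). Ap3m1 on the opposite strand overlaps 25.5% of the Vcl exons and the strand setting of the counting is not given. Ap3m1 ranged from 123 to 138 CPM, and its part in the Vcl value was not tested. Tln1, talin, which activates integrins, ranged from 180 to 198 CPM in WT and Smad4 KO and stood at 237 and 227 CPM in Smad4 KO+TGFb. Its rise with TGFb (0.23 ± 0.0473 SE, edgeR adjusted p = 0.0209) was lost without any 1 of the 4 libraries compared (edgeR adjusted p = 0.0633 to 0.12). The LIM protein Zyx, at 82.4 to 105 CPM, and the adaptor Pxn, paxillin, at 110 to 158 CPM, passed in no comparison, and their libraries overlapped between WT and both KO groups. Pxn differed most between the WT libraries, and passed as lower in Smad4 KO without WT replicate 1 (edgeR adjusted p = 0.036) and as higher in Smad4 KO+TGFb without WT replicate 2 (edgeR adjusted p = 0.0355).

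**Figure D3:**
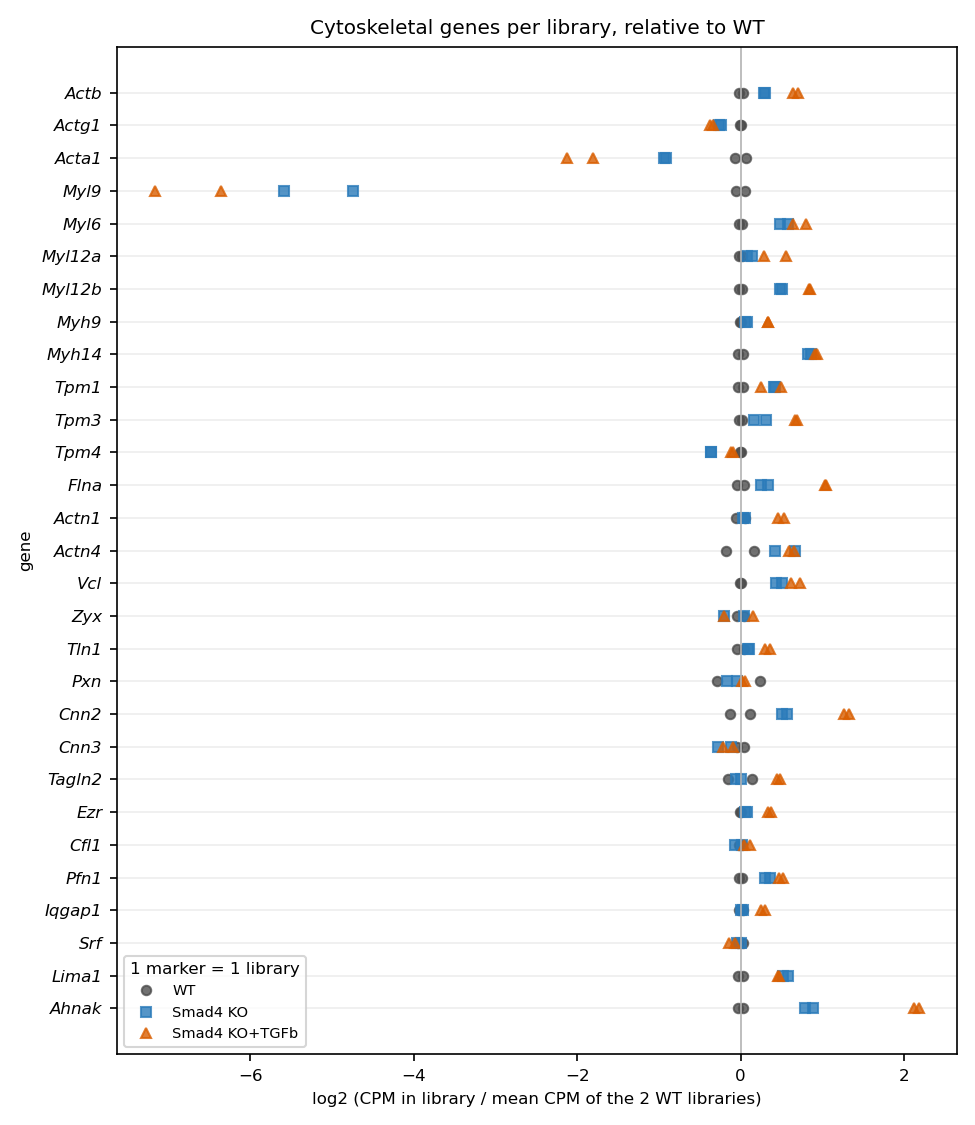
log2 of the CPM in each library over the mean CPM of the 2 WT libraries for 29 members (1 marker per library, n = 2 per group). Members at low counts (Msn, Rdx, Tagln, Tpm2 and Myh10) and the readthrough row are left out. Treated libraries lie to the right of both other groups for Actb, Flna, Cnn2, Ahnak and Tpm3, while Zyx, Pxn and Cfl1 stay near 0.

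In the calponin and transgelin family, which bind actin filaments through related domains, Cnn2 moved and Cnn3 did not pass. Cnn2, calponin 2, a nonmuscle form, was at 24.8 and 29.5 CPM in WT, 38.7 and 40.1 in Smad4 KO, and 68.1 and 65.4 in Smad4 KO+TGFb. It rose by 0.54 ± 0.0988 SE in Smad4 KO against WT (edgeR adjusted p = 0.00821) and by 0.76 ± 0.0983 SE with TGFb (edgeR adjusted p = 0.00356), and was 2.46-fold higher in Smad4 KO+TGFb than in WT. Cnn3 ranged from 104 to 129 CPM over all 6 libraries. The ratio of Cnn2 to Cnn3 per kb therefore rose from 0.252 and 0.282 in WT to 0.457 and 0.425 in Smad4 KO and 0.776 and 0.686 in Smad4 KO+TGFb.

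Tagln2, the transgelin of nonmuscle cells, was at 251 and 308 CPM in WT, 280 and 270 in Smad4 KO, and 390 and 380 in Smad4 KO+TGFb. It was higher with TGFb than in Smad4 KO (log2 fold change 0.49 ± 0.0912 SE, edgeR adjusted p = 0.0148), a call lost without any 1 of the 4 libraries compared (edgeR adjusted p = 0.0608 to 0.08). Tagln, the smooth muscle transgelin SM22, stayed at 0.344 and 0.662 CPM in WT, 1.68 and 0.966 in Smad4 KO, and 1.71 and 1.6 in Smad4 KO+TGFb. Its difference between Smad4 KO+TGFb and WT passed (log2 fold change 1.72, edgeR adjusted p = 0.044) and was lost without any 1 of those 4 libraries (edgeR adjusted p = 0.053 to 0.164). The antisense gene Gm48529 overlaps 62.4% of the Tagln exons at 2.53 to 5.31 CPM, above Tagln itself, so reads from the 2 genes cannot be told apart.

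The linkers between actin and the membrane were almost entirely ezrin. Ezr, which organises the microvilli of the brush border, made up 99.5% to 100% of the Ezr, Msn and Rdx transcripts per kb. It stood at 499 and 502 CPM in WT, 528 and 519 in Smad4 KO, and 632 and 646 in Smad4 KO+TGFb, and rose with TGFb (log2 fold change 0.29 ± 0.028 SE, edgeR adjusted p = 0.00116) but did not pass in Smad4 KO against WT (0.07, 95% interval -0.02 to 0.15). Msn, moesin, the paralog typical of mesenchymal and blood cells, was at 0.0764 and 0.456 CPM in WT, 0.636 and 0 in Smad4 KO, and 5.88 and 3.62 in Smad4 KO+TGFb. The treated libraries were both far above the rest, with about 103 fragments against 6 in either other group, a ratio of 15.7 to Smad4 KO (95% counting interval 6.97 to 43.8). The replicate spread was wide at these counts: the difference did not pass against Smad4 KO (log2 fold change 3.9 ± 1.31 SE, edgeR adjusted p = 0.102, but 0.0295 without Smad4 KO replicate 1 and 0.0211 with values divided by 4), and against WT it passed at 4.18 (edgeR adjusted p = 0.0472) but not without any 1 of those 4 libraries (edgeR adjusted p = 0.0748 to 0.179). Rdx, radixin, rested on 13 fragments in WT and 2 in each KO group and passed nowhere. Leukocyte markers moved beside Msn: the summed level of the 6 was 0.0913 to 0.713 CPM in WT and Smad4 KO and 7.4 and 7.84 CPM in Smad4 KO+TGFb, where Laptm5 passed against Smad4 KO. Their part in the Msn value was not tested.

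Of the proteins that turn filaments over, Pfn1 rose and Cfl1 passed nowhere. Profilin 1 feeds actin monomers to growing ends, and Pfn1 was at 639 and 626 CPM in WT, 776 and 809 in Smad4 KO, and 907 and 878 in Smad4 KO+TGFb (log2 fold change 0.33 ± 0.0318 SE in Smad4 KO against WT, edgeR adjusted p = 0.00062). The further rise with TGFb (0.17 ± 0.0318 SE, edgeR adjusted p = 0.0142) was lost without Smad4 KO replicate 1 (edgeR adjusted p = 0.075) or Smad4 KO+TGFb replicate 1 (edgeR adjusted p = 0.0811). Cofilin 1 severs old filaments, and Cfl1 ranged from 728 to 829 CPM, with 95% intervals of the log2 fold change of -0.16 to 0.11 and -0.03 to 0.24 in the 2 steps. The ratio of Pfn1 to Cfl1 per kb of exon was 0.977 and 0.982 in WT, 1.26 and 1.23 in Smad4 KO, and 1.29 and 1.33 in Smad4 KO+TGFb.

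**Figure D4:**
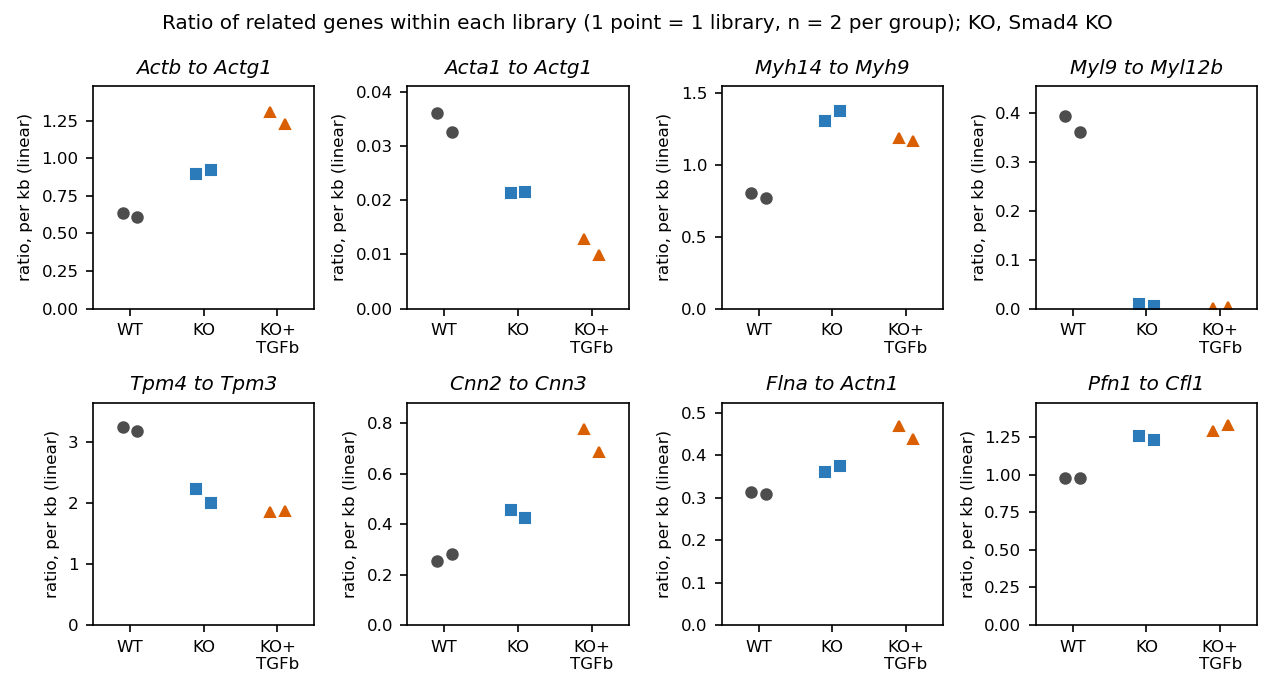
Ratio of 2 related genes within each library, per kb of exon on linear axes from 0 (1 point per library, n = 2 per group). Actb to Actg1, Cnn2 to Cnn3 and Flna to Actn1 climb over the 3 groups, Acta1 to Actg1 and Myl9 to Myl12b descend, and Myh14 to Myh9 is highest in Smad4 KO (1.31 and 1.38).

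In Smad4 KO+TGFb against WT, the scaffold Ahnak rose more than any other member that passed, except the rare Msn and Tpm2. AHNAK is a giant protein under the plasma membrane that binds annexin complexes and actin. Ahnak (chromosome 19, 8989284 to 9076914, plus strand, GRCm38) stood at 127 and 122 CPM in WT, 230 and 215 in Smad4 KO, and 541 and 565 in Smad4 KO+TGFb. The 3 groups were far apart, and Ahnak rose 1.79-fold in Smad4 KO against WT (log2 fold change 0.84 ± 0.049 SE, edgeR adjusted p = 7.14e-05), 2.48-fold with TGFb (1.31 ± 0.0493 SE, edgeR adjusted p = 3.34e-05) and 4.44-fold in Smad4 KO+TGFb against WT (edgeR adjusted p = 1.34e-06). Lima1, the LIM protein EPLIN that bundles filaments at junctions, was at 317 and 329 CPM in WT, 484 and 464 in Smad4 KO, and 443 and 448 in Smad4 KO+TGFb. It rose in Smad4 KO against WT (log2 fold change 0.55 ± 0.0368 SE, edgeR adjusted p = 0.000126) and did not pass with TGFb (-0.09, 95% interval -0.21 to 0.03). Iqgap1, a scaffold for Rac1 and Cdc42, ranged from 411 to 425 CPM in WT and Smad4 KO and stood at 497 and 516 CPM in Smad4 KO+TGFb (log2 fold change 0.26 ± 0.0349 SE against Smad4 KO, edgeR adjusted p = 0.0041).

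Srf, the factor that reads the CArG box, kept a narrow range of 47.5 to 53.8 CPM over the 6 libraries and passed in no comparison, with 95% intervals of the log2 fold change of -0.24 to 0.20 in Smad4 KO against WT and -0.31 to 0.13 with TGFb. The 8 members whose promoter holds the box went different ways. In Smad4 KO against WT, Cnn2, Lima1, Myl6 and Vcl were higher and Acta1, Actg1 and Myl9 lower. In Smad4 KO+TGFb against WT, which uses the same WT libraries, Cnn2, Lima1, Myl6 and Vcl were higher and Acta1, Actg1 and Myl9 lower. With TGFb against Smad4 KO, only Cnn2 rose among them, and Acta1, Actg1 and Myl9 were again lower. Of the 23 members with a promoter and no box, 9 rose and 1, Tpm4, fell in Smad4 KO against WT, 13 rose and 0 fell with TGFb against Smad4 KO, and 17 rose and 0 fell in Smad4 KO+TGFb against WT. Over all genes tested, 16.9% were higher and 13.4% lower in the first of these comparisons, 7.78% and 8.48% in the second, and 20.7% and 19.0% in the last. In the last 2 comparisons each member that passed as lower thus has a box among the windows printed above. No test compares the 2 sets, since the promoters were sorted with the directions known. Actb, Pxn and Tagln had no promoter to search and are in neither set. Actb passed as higher in every comparison, Tagln as higher only in Smad4 KO+TGFb against WT, and Pxn in none.

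Among partner genes of the pathway, more passed as higher than as lower in each comparison. Of 26 genes of actin assembly and turnover, 12 rose and 2 fell in Smad4 KO against WT, 7 rose and 0 fell with TGFb against Smad4 KO, and 20 rose and 1 fell in Smad4 KO+TGFb against WT. The shares over all genes tested, for this list and those that follow, were 16.9% higher and 13.4% lower, then 7.78% and 8.48%, then 20.7% and 19.0%. Gsn, gelsolin, which severs and caps filaments, led them at 50.6 and 53.4 CPM in WT, 126 and 124 in Smad4 KO, and 243 in each treated library (log2 fold change 1.26 and 0.96 in the 2 steps, edgeR adjusted p = 1.51e-05 and 0.000109). The monomer-binding Tmsb10 fell in Smad4 KO against WT (-0.32) and rose with TGFb (0.53), as Tpm4 did. Of the 24 testable genes among 27 adhesion plaque and LIM proteins, 12 rose and 5 fell, 12 rose and 0 fell, and 15 rose and 3 fell in the 3 comparisons in the same order. Among them with TGFb against Smad4 KO were Pdlim7, a LIM scaffold on stress fibres (4.97-fold, edgeR adjusted p = 4.23e-05), and Tns4, a tensin at adhesions (4.31-fold, edgeR adjusted p = 4.74e-05). Enah, a partner of profilin at filament ends, rose 5.64-fold in Smad4 KO against WT, from 0.611 and 0.456 CPM to 3.28 and 2.8 CPM (edgeR adjusted p = 0.000552).

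Mylk, the kinase that phosphorylates regulatory light chains, was at 33.7 and 37.8 CPM in WT, 65.3 and 63.1 in Smad4 KO, and 94.3 and 94.8 in Smad4 KO+TGFb, and rose in both steps (log2 fold change 0.85 and 0.56, edgeR adjusted p = 0.00043 and 0.00403). Its direction was that of Myl12b and opposite to that of Myl9. The GTPase Rhob fell slightly in Smad4 KO against WT (log2 fold change -0.41) and was 2.91-fold higher with TGFb (edgeR adjusted p = 4.25e-05), while Rhoc rose in Smad4 KO against WT (0.91, edgeR adjusted p = 0.000261). Of the 5 testable genes among 6 SRF cofactors, 1 rose in Smad4 KO against WT, 2 rose with TGFb against Smad4 KO, 1 rose in Smad4 KO+TGFb against WT, and 0 fell. Myocd was at 0 throughout, and Mrtfa ranged from 33.7 to 48.5 CPM and passed nowhere. Mrtfb, at 98.0 to 116 CPM, passed as higher with TGFb against Smad4 KO (log2 fold change 0.21 ± 0.0521 SE, edgeR adjusted p = 0.0405), and did not pass there without any 1 of the 6 libraries (edgeR adjusted p up to 0.193 over the alternatives). Elk3, an ETS partner of SRF, climbed from 2.43 and 2.08 CPM in WT to 4.38 and 6.19 in Smad4 KO and 26.4 and 27.3 CPM in Smad4 KO+TGFb (log2 fold change 1.23 and 2.34, edgeR adjusted p = 0.00539 and 0.000642).

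Epithelial cell types changed beside these genes. The 7 epithelial markers summed to 6476 and 6557 CPM in WT, 9167 and 9331 in Smad4 KO, and 13152 and 13293 in Smad4 KO+TGFb, in the same order as the summed cytoskeletal genes. Krt8 rose most in CPM, from 2217 and 2210 in WT to 5194 and 5070 in Smad4 KO+TGFb, then Krt19, from 1082 and 1130 to 3374 and 3628. Krt20 passed as lower with TGFb against Smad4 KO, and Cdx2, at 186 to 209 CPM, passed nowhere. Enterocyte markers, 13 genes, summed to 6038 and 6024 CPM, 17979 and 18194 CPM, and 11536 and 11465 CPM in the 3 groups, so they were highest in Smad4 KO, as was the ratio of Myh14 to Myh9. Stem and cycling markers, 9 genes, summed to 6997 and 6959 CPM in WT, 4080 and 4086 in Smad4 KO and 2691 and 2701 in Smad4 KO+TGFb, and secretory markers, 12 genes, to 7350 and 7413, 4563 and 4470, and 2967 and 2957 CPM. Some markers went against their sums. The enterocyte marker Anpep passed as lower in Smad4 KO than in WT. With TGFb against Smad4 KO, the enterocyte marker Vil1 and the secretory marker Mmp7 passed as higher. The part of the cell mix in the cytoskeletal values was not tested.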

How the data were processed

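Total RNA of 6 organoid libraries was sequenced from random-hexamer cDNA, per the labels' protocols. The deposited values are estimated counts per Ensembl gene that the authors made with HISAT2 2.1.0, SAMtools 1.9 and StringTie 1.3.3b on GRCm38 (mm10), after FastQC 0.11.9, per the submitters' processing notes. The sources used here do not give the annotation release or the strand setting. The values were already whole numbers and were used without rounding. StringTie divides reads between overlapping and near-identical transcripts. This is pointed out above for Myl12a, Myl12b, Tpm3, Vcl and Tagln only. Other members share sequence or exons with other genes too. The units of Lrrc58 equalled 5.13% of those of Actb, and those of Creb3 13.6% of those of Tln1. Snx32 overlaps 16.5% of the Cfl1 exons. Actg1, Myl6 and Cnn3 share sequence with 8, 5 and 3 genes that have no deposited values. About 4 units per fragment is an inference, since 42.3% of values from 1 to 24 were multiples of 4, and counting intervals (95%) rest on it and cover counting error only.

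Samples were grouped by title. Genes were filtered with filterByExpr, scaled by TMM and tested with edgeR 4.0.16 (quasi-likelihood test, 2-sided, R 4.3.3) with the group as the only term over all 6 libraries, leaving 3 residual degrees of freedom; p-values were adjusted over 15503 genes. Each SE was derived from that test, as the absolute log2 fold change divided by the square root of its F statistic. The 95% intervals of log2 fold changes use this SE and a t distribution with 3 degrees of freedom. The test itself also draws on the spread of other genes, so an interval and its p can disagree. Alternatives were DESeq2 1.42.0, RLE scaling, no filter, a replicate block, values divided by 4, only the 4 libraries compared, and each library left out. On simulated data made from these 15503 genes, 67 genes were changed by 1.5-fold, 67 by 2-fold and 66 by 4-fold in each comparison. They were drawn from all genes above 1 CPM. In Smad4 KO against WT, Smad4 KO+TGFb against Smad4 KO and Smad4 KO+TGFb against WT, 1.5-fold changes were recovered for 19.4%, 16.4% and 29.9%. For 2-fold changes it was 58.2%, 58.2% and 68.7%. Far more genes passed in the data (16.3% to 39.7%), which loosens the cutoff on p, and most members lie well above 1 CPM. These rates are therefore not the rates for the members.

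The members, the other gene lists and the rules were chosen with earlier results of these data known. Values in every library are given for members that passed in at least 1 comparison beyond 0.5 on the log2 scale with at least 1 CPM in the higher group, 16 in all. Actg1, Tpm1, Tpm4, Actn1, Myh9, Tln1, Tagln2, Ezr, Pfn1 and Iqgap1 are also described, and were added after their values were seen. Of each other list, genes are named from the 4 smallest adjusted p in a comparison, and cofactors at 0 or not passing were added. Not every gene picked this way is reported here. Gene positions and exon lengths are from GENCODE vM21, and promoters from RefSeq.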

Additional observations from a re-analysis of the deposited data

How the results depend on the processing

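Of the 18 members that passed in Smad4 KO against WT, 14 passed in the same direction under every alternative run, as did 12 of 18 with TGFb against Smad4 KO and 22 of 26 in Smad4 KO+TGFb against WT; the others are Myh9, Tpm1, Tpm3 and Actn4, then Actg1, Myl9, Tpm2, Tln1, Tagln2 and Pfn1, then Myl12a, Tpm1, Tagln and Msn. No member that passed with all libraries changed sign under an alternative, while some that did not pass, such as Pxn and Msn in Smad4 KO against WT, did. With 1 library left out, the number of all genes lower in Smad4 KO against WT ran from 1166 to 1867 (2084 with all libraries), with the low values of 1166 and 1227 when WT replicate 1 or 2 was the one omitted and 1387 for Smad4 KO replicate 1. With TGFb against Smad4 KO it ran from 656 to 1108 higher (1206 with all) and 848 to 1196 lower (1315 with all), and members lower ran from 1 to 3, with 1 without Smad4 KO replicate 1 or Smad4 KO+TGFb replicate 1. Replicates left alone in a group by this are assumed to vary like the other groups. A replicate block changed the members higher and lower to 13 and 5, 16 and 2, and 22 and 3 in the 3 comparisons. Deviations of same-numbered libraries correlated across genes at -0.033 to 0.031, so no pairing by number was visible in the values. This cannot show whether same-numbered libraries were cultured or prepared together. With the block, Myh9 in Smad4 KO against WT (adjusted p = 0.0714), Myl9 with TGFb against Smad4 KO (0.0626), and Tagln and Msn in Smad4 KO+TGFb against WT (0.0784 and 0.084) did not pass in edgeR. DESeq2 gave 14 and 5, 19 and 3, and 22 and 3: it passed Myl6, Myl12a and Vcl with TGFb against Smad4 KO (adjusted p = 0.0254, 0.00929 and 0.0164) and not Msn against WT (0.103). In DESeq2 and with the block, the readthrough row, above 0 in only 2 libraries, was counted as lower in Smad4 KO against WT and as higher with TGFb against Smad4 KO. Ratios within families used exon union lengths, and the longest CCDS transcript, chosen after seeing the data, changes only their level, since a length is the same factor in every library. The simulated recovery does not give the rate for the members, since few genes were changed in it and they were drawn from all genes above 1 CPM. With 2 libraries per group, members that did not pass are not shown to be stable.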
